A study of Mus musculus with 12 samples.

Results

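The nuclear-encoded genes of oxidative phosphorylation were followed by RNA sequencing in mouse proximal tubule (PT) cells with and without the TGF-β type II receptor. Members were the protein-coding nuclear genes whose symbols begin with Nduf, Uqcr, Cox followed by a digit, or Atp5, together with Sdha, Sdhb, Sdhc, Sdhd and Cyc1. These rules took 107 of the 25514 genes to which the deposited transcripts could be assigned, and 101 of the 107 passed the filter on low counts and were tested among 12971 genes. By complex, there were 37 subunits, 8 assembly factors and 1 gene copy of complex I, 4 subunits of complex II and 9 of complex III. Complex IV had 20 subunits, 9 assembly factors and 1 gene copy, and complex V, the ATP synthase, had 17 subunits and the inhibitor Atp5if1.

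Oxidative phosphorylation takes electrons from NADH at complex I and from succinate at complex II, passes them through coenzyme Q, complex III and cytochrome c, and gives them to oxygen at complex IV. Protons pumped on the way drive ATP synthesis by complex V. A few subunits are encoded in mitochondrial DNA and the rest in the nucleus, where assembly factors that do not stay in the finished complexes are also encoded. PT cells reabsorb most of the filtrate in the kidney and depend on mitochondria to do so.

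The study compared 4 groups of 3 libraries each. TβRII flox/flox PT cells, with both Tgfbr2 alleles floxed (genotype label H2ts6;Tgfbr2fl/fl), and TβRII-/- PT cells (H2ts6;Tgfbr2-/-) were each sampled in normal culture medium and after 24 h of H2O2 in serum-free medium. All groups carried the temperature-sensitive large T antigen of the Immorto-mouse and were grown at 33 °C with interferon gamma and then for 5 days at 37 °C, in medium with 2.5% fetal bovine serum. The labels give the H2O2 dose as 200 mM, whereas the methods give a micromolar unit. TβRII-/- cells had been made from the floxed cells in culture with adenoviral Cre, so that each genotype is a single line. The effect of the receptor and any other difference between the lines cannot be told apart, nor can H2O2 and the withdrawal of serum. The replicates are separate libraries that no label ties to separate cultures, so the p-values measure the spread between libraries, which may be technical. In bulk RNA, fewer cells of a type and less RNA per cell cannot be told apart.

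Libraries held between 15870155 and 20857618 counts on the transcripts used for the genes, and the first principal component, with 81.5% of the variance, separated the genotypes. Levels are given as CPM, which is counts per 1000000 counts of the library after TMM scaling. Tgfbr2 was counted in every library, at 533, 482 and 436 CPM in untreated TβRII flox/flox cells and at 391, 385 and 366 CPM in untreated TβRII-/- cells. With H2O2, it stood at 765, 802 and 790 CPM against 416, 421 and 410 CPM. The counts are per transcript and not per exon, so that they do not check the deletion itself. Of 10 PT markers, Lrp2 was at 897 to 1170 CPM in untreated TβRII flox/flox and 608 to 658 CPM in untreated TβRII-/- cells, while Slc34a1, Slc22a6 and Hnf4a never exceeded 3 counts in a library. Epcam ranged between 0 and 0.0641 CPM in untreated TβRII flox/flox cells and between 35.8 and 42 CPM in untreated TβRII-/- cells, and Cdh1 between 0.0606 and 0.186 CPM against 60.3 to 67.5 CPM. Gatm went the other way, with 51.7 to 58.4 CPM against 75.1 to 81.4 CPM untreated and 36.3 to 42.9 CPM against 51.5 to 61.5 CPM with H2O2. The summed PT markers, mostly Lrp2 and Aqp1, ranged from 1330 to 1660 CPM and from 945 to 1010 CPM in these groups, and from 1820 to 1980 CPM and from 972 to 1050 CPM with H2O2. The summed level of the 4 epithelial markers was 153 to 175 CPM and 611 to 627 CPM untreated, and 123 to 133 CPM and 498 to 530 CPM with H2O2. These values moved with the genotype, and their part in the differences between genotypes was not tested. Among markers of other cells, the endothelial marker Kdr was at 7.13 to 7.64 CPM against 26.4 to 33.6 CPM in the untreated groups and at 1.19 to 1.29 CPM against 2.22 to 3.44 CPM with H2O2, while Pecam1 and Cdh5 never exceeded 4 counts. The macrophage marker Cd68 was at 7.31 to 8.39 CPM in TβRII flox/flox and at 12.8 to 15.6 CPM in TβRII-/- cells, and Adgre1 was at 0. The 4 fibroblast markers summed to at most 5.35 CPM, and podocyte and collecting duct markers were at or near 0.

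Promoters were read from RefSeq (GRCm38.p6), from 250 bases before to 50 bases after the start, for the 83 of 107 members with an entry. Ndufb8 is shown because it passed the test in all 4 comparisons, Ndufs3 because it passed both tests between genotypes and neither with H2O2, and Cox7a1 because it had the largest fitted fold change between genotypes. The windows are chr19:44555393-44555692 on the minus strand, chr2:90904672-90904971 on the minus strand and chr7:30183921-30184220 on the plus strand. Capitals mark the short motifs searched, on either strand.
Ndufb8: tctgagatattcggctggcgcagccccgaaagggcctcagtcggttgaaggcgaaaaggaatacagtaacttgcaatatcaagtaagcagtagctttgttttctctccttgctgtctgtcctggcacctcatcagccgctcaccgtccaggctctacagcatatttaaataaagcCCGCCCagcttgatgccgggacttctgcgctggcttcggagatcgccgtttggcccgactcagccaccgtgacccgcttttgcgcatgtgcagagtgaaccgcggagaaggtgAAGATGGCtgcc
Ndufs3: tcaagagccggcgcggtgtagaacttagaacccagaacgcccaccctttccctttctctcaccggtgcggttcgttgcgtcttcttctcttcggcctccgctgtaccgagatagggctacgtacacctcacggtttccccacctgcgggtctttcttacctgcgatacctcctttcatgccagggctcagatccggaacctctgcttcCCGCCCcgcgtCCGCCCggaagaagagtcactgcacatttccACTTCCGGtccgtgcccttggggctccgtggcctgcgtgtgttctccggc
Cox7a1: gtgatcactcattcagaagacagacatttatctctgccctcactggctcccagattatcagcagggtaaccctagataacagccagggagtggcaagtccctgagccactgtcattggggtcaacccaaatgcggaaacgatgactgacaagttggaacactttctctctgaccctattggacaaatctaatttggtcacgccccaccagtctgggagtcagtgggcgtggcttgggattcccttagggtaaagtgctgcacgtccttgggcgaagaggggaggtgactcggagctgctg

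The Ndufb8 window holds the YY1 letters AAGATGGC near its end and the SP letters GGGCGG on the other strand. The Ndufs3 window holds the ETS letters CCGGAAGT and the SP letters, both on the other strand, and the Cox7a1 window holds none of the letters searched. Over the members, the NRF1 letters GCGCATGC occurred in 14.5% of 83 genes, against 3.93% of 17491 protein-coding genes with an entry. YY1 letters occurred in 15.7% against 3.57%, ETS letters in 10.8% against 5.69%, the ESRRA letters TCAAGGTCA in 2.41% against 0.377%, and the SP letters in 47% against 49.2%. Windows of genes with several starts were joined per gene, both strands were searched, and no motif contains another. A match describes the letters only.

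The members together took 0.707% of all scaled counts in untreated TβRII flox/flox cells, 0.765% in untreated TβRII-/- cells, 0.631% in H2O2-treated TβRII flox/flox cells and 0.706% in H2O2-treated TβRII-/- cells. Their mean level over all libraries had a median of 42.5 CPM, against 31.2 CPM over all genes tested. Per kilobase of transcript, the most abundant members in untreated TβRII flox/flox cells were Cox6a1 at 463 CPM per kb, Cox4i1 at 401, Cox8a at 391, and the ATP synthase subunits Atp5f1b at 360 and Atp5f1a at 246. The representative transcript of Cox8a is a shorter one annotated as nonsense-mediated decay, which touches its value per length.

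**Figure D1:**
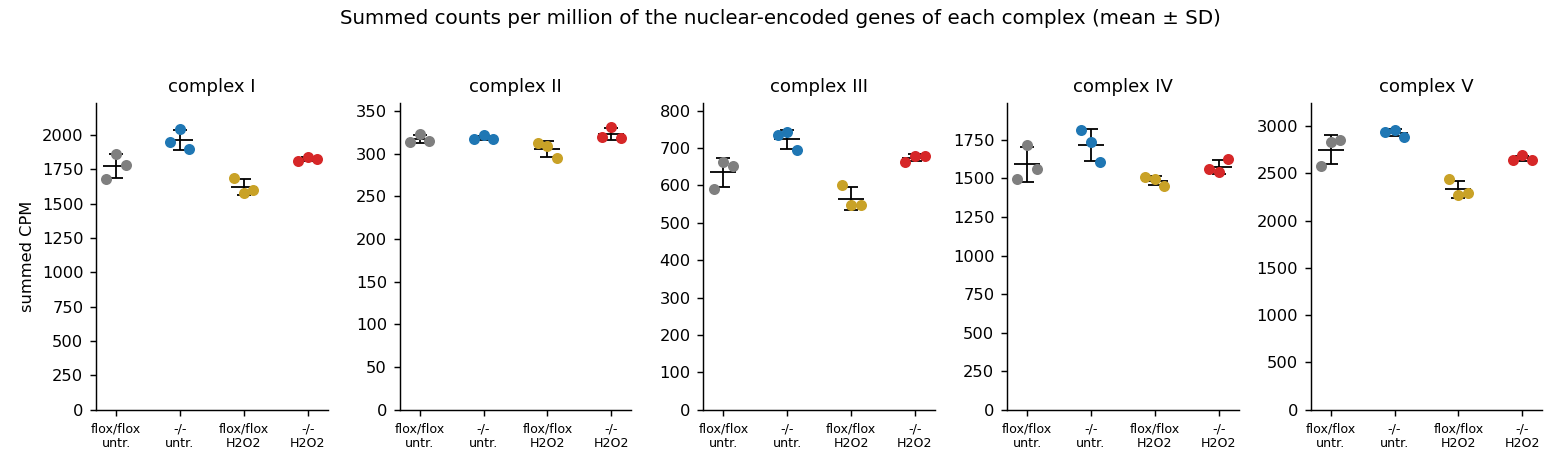
Summed CPM (vertical axis, from 0) of the nuclear-encoded genes of each complex, 1 point per library and 3 libraries per group, with mean and SD. The mean of complex V was 2750 ± 154 CPM in untreated and 2331 ± 89.9 CPM in H2O2-treated TβRII flox/flox cells, while complex II lay between 294 and 331 CPM in all libraries.

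The summed level of complex V was 2573, 2828 and 2850 CPM in the 3 untreated TβRII flox/flox libraries and 2434, 2269 and 2290 CPM with H2O2. In TβRII-/- cells it was 2938, 2959 and 2887 CPM untreated and 2640, 2689 and 2645 CPM with H2O2. Thus, the treated libraries lay below all untreated libraries of the same genotype, and untreated TβRII-/- libraries lay above all untreated TβRII flox/flox libraries. Complex III had means of 634.6 ± 37.8, 723.1 ± 25.2, 564.6 ± 30.7 and 674.1 ± 9.24 CPM (SD, n = 3) in untreated TβRII flox/flox, untreated TβRII-/-, H2O2-treated TβRII flox/flox and H2O2-treated TβRII-/- cells. In complex III, treated and untreated TβRII flox/flox libraries overlapped. Complex I had means of 1774 ± 89.1, 1963 ± 74.8, 1621 ± 58.5 and 1829 ± 14.4 CPM in the same order. Complex II, the smallest complex and the only respiratory complex without a mitochondrially encoded subunit, had means of 316.8, 318.3, 305.1 and 322.7 CPM, with SDs of up to 9.4 CPM. Sums over members are descriptions and carry no test.

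The first comparison asked how the members differed between genotypes in normal medium. In untreated TβRII-/- cells, 41 of 101 members were higher and 7 were lower than in TβRII flox/flox cells at an adjusted p under 0.05, against 33.3% higher and 31.4% lower of all genes tested. Thus, 40.6% of members were higher and 6.93% were lower. Their median log2 fold change was 0.12, with quartiles of −0.02 and 0.34, against a median of 0.01 over all genes. The median was 0.07 without replicate 2 of untreated TβRII-/- cells, and without replicate 1 of untreated TβRII flox/flox cells 35 members were higher and 11 lower. The median size of the change regardless of sign was 0.21 for members and 0.34 for all genes. By the study's own limits, an unadjusted p under 0.01 and a change of at least 1.5-fold, 11 members were called, against 27% of all genes.

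By complex, 13 of 37 complex I subunits were higher and 5 lower, 5 of 9 complex III subunits were higher and none was lower by edgeR, 6 of 15 tested complex IV subunits were higher, and 9 of 17 complex V subunits were higher and 1 lower. The shares higher were 35.1%, 55.6%, 40% and 52.9%, against 33.3% of all genes, so that complex I lay near that share. The shares lower in complexes I and V were 13.5% and 5.88%, against 31.4%. Of the 4 complex II subunits, Sdhd alone was called. Complex IV assembly factors were called in 6 of 9 (5 higher, 1 lower), which is 66.7%, against 64.7% of all genes. Complex I assembly factors were called in 1 of 8 (Ndufaf3, log2 fold change 0.32), which is 12.5%. Ndufaf3 was not called by DESeq2 or without any 1 of 5 of the 6 untreated libraries. Over all complexes, 34 of 82 subunits were higher and 6 lower (41.5% and 7.32%), against 6 and 1 of 17 assembly factors (35.3% and 5.88%). Leaving out 1 library changed small groups most: the complex III count was 3 without replicate 1 of either untreated group, and the count of lower complex I subunits was 3 without replicate 3 of untreated TβRII-/- cells. Of the 48 calls in this comparison, 38 were kept whichever library was left out.

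**Figure D2:**
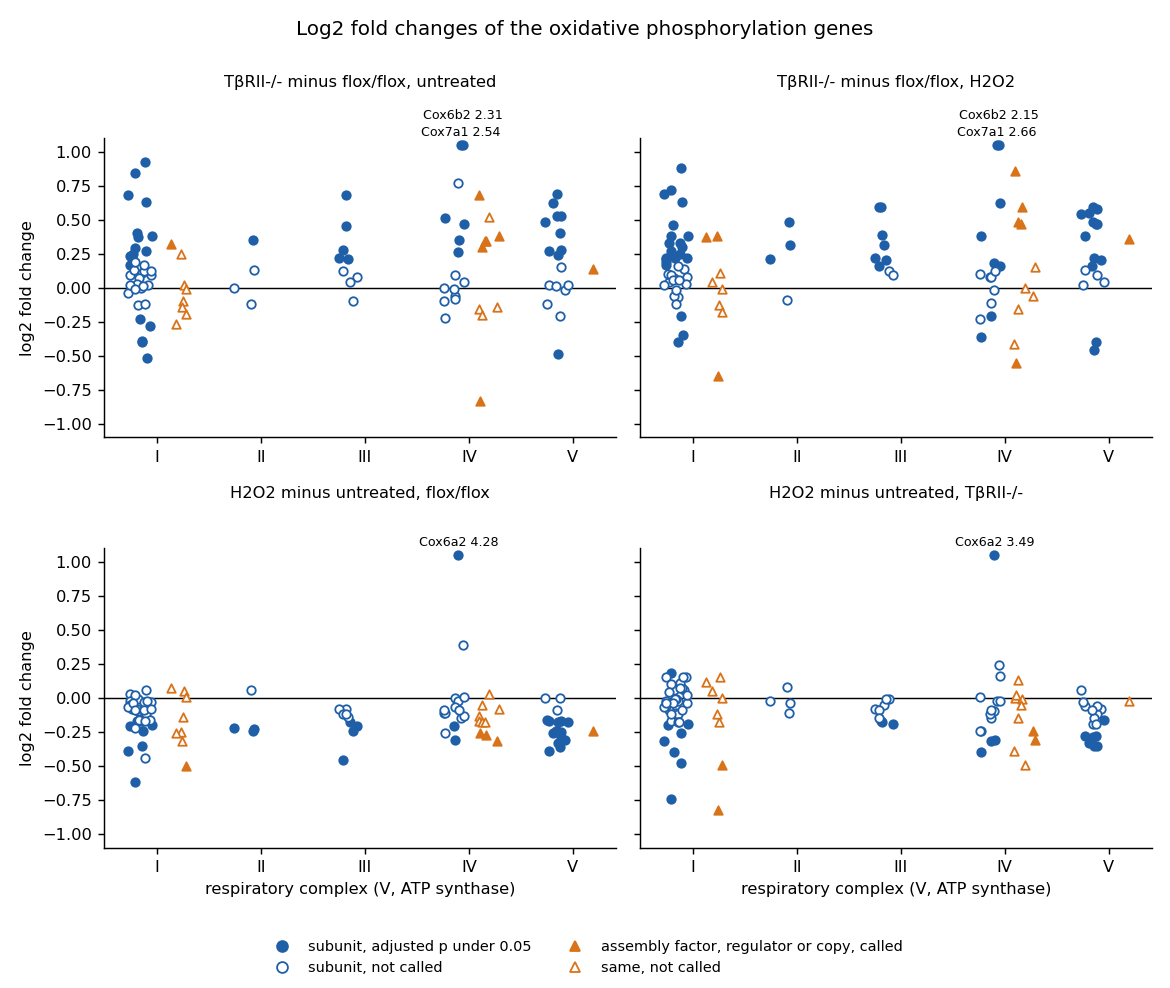
Log2 fold change (vertical axis) of each tested member by complex, in 4 comparisons. Filled symbols passed an adjusted p of 0.05, circles are subunits and triangles are assembly factors, the inhibitor or the gene copy, and 3 low-count isoforms beyond the axis are drawn at its edge with their values. Most called members lie above 0 between genotypes and below 0 with H2O2.

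Ndufb8, an accessory subunit of the membrane arm of complex I, had the largest change among members above 100 CPM in that comparison. It was counted at 126, 155 and 130 CPM in untreated TβRII flox/flox cells and at 251, 247 and 238 CPM in untreated TβRII-/- cells. The groups did not overlap, and the log2 fold change was 0.84 ± 0.07 (SE; adjusted p = 1.34e-12). Ndufb8 lies at chr19:44548571-44555442 (GRCm38.p6), and a readthrough transcript, Gm20538, covers 68.6% of its representative transcript on the same strand. All its annotated transcripts gave a ratio of TβRII-/- to TβRII flox/flox between 1.9 and 2. As reads were counted on several transcripts of a gene, these ratios are not independent.

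Ndufs3, a core subunit of the peripheral arm of complex I, was at 20.7, 24 and 27.6 CPM in untreated TβRII flox/flox cells and at 38.6, 37.7 and 39.8 CPM in untreated TβRII-/- cells (log2 fold change 0.68 ± 0.08, adjusted p = 1.84e-08). Ndufa6, an accessory subunit, rose by 0.63 ± 0.07 on the log2 scale, and Ndufb4, another membrane-arm subunit, by 0.92 ± 0.18. The transcript of Ndufa6 is covered to 59.8% by Smdt1 on the opposite strand, and it was counted at a mean of 711 against 972 for Smdt1. Smdt1 rose by 0.74 between the untreated genotypes and by 0.76 with H2O2, so that the level of Ndufa6 is uncertain. Ndufb4 was rarely counted, at 2.61, 4.17 and 3.28 CPM against 6.81, 6.58 and 5.68 CPM. Of its 50-base windows, 38.4% also occur in transcripts of genes elsewhere, chiefly Ndufb4b, so that its level is uncertain. Windows of Ndufs3 were shared to 31.8%, chiefly with Gm12251. The complex I subunits that fell included the accessory subunits Ndufa12 (log2 fold change −0.40), Ndufc2 (−0.39), Ndufc1 (−0.28) and Ndufa3 (−0.23). The calls for Ndufc1 and Ndufa3 were lost without replicate 2 of untreated TβRII flox/flox or replicate 3 of untreated TβRII-/- cells and with library totals alone, and that for Ndufc1 also without untreated TβRII flox/flox replicate 3 and by DESeq2. Ndufc2 was at 28.4, 32.8 and 32.7 CPM against 22.4, 25.1 and 23.9 CPM, and these groups did not overlap.

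In complex III, Cyc1, the cytochrome c1 subunit that hands electrons to cytochrome c, was at 62.1, 61.2 and 68 CPM in untreated TβRII flox/flox cells and at 107, 94.9 and 105 CPM in untreated TβRII-/- cells. Every TβRII-/- library was above every TβRII flox/flox library, and the log2 fold change was 0.68 ± 0.06 (adjusted p = 3.8e-11). The representative transcript of Cyc1 retains an intron. Uqcrfs1, the Rieske iron-sulfur subunit, rose less, by 0.28 ± 0.08 (adjusted p = 0.0035). Core proteins Uqcrc1 and Uqcrc2, which hold the complex together, were not called at log2 fold changes of 0.12 and 0.08.

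In complex IV, Cox15, which makes haem A for the complex, was at 34.5, 29.9 and 35.5 CPM and at 54, 50.9 and 55.7 CPM in untreated TβRII flox/flox and TβRII-/- cells (log2 fold change 0.68 ± 0.08, adjusted p = 5.58e-09). Cox19, which takes part in copper delivery to the complex, went the other way, with 19.5, 17.9 and 20.5 CPM against 9.7, 11.6 and 11.3 CPM (log2 fold change −0.83 ± 0.10, adjusted p = 1.98e-08). The groups of both genes did not overlap. Cox14, Cox17, Cox18 and Cox20, the other assembly factors that rose, changed by 0.30 to 0.38 on the log2 scale. The call for Cox20 was lost without replicate 1 or 3 of untreated TβRII flox/flox or replicate 1 of untreated TβRII-/- cells, and summed over transcripts. The transcript of Cox20 is covered to 85.7% by Hnrnpu on the opposite strand, and it was counted at a mean of 183 against 12700 for Hnrnpu.

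In complex V, Atp5f1e, the epsilon subunit, was at 13.8, 15.5 and 19 CPM and at 25.7, 26.6 and 25.8 CPM in the untreated groups (log2 fold change 0.69 ± 0.11, adjusted p = 1.67e-06). Atp5me, a membrane subunit that takes part in dimer formation, rose by 0.62 ± 0.08, and Atp5f1c, the gamma subunit of the rotor, by 0.53. Atp5f1a and Atp5f1b were at log2 fold changes of −0.02 and 0.02 and were not called. Atp5mf, another membrane subunit, fell by 0.49 ± 0.06 on the log2 scale, from 99.7, 115 and 105 CPM to 75.2, 78.4 and 73.5 CPM. Representative transcripts of Atp5f1e and Atp5me retain an intron, and that of Atp5mf is annotated as nonsense-mediated decay.

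**Figure D3:**
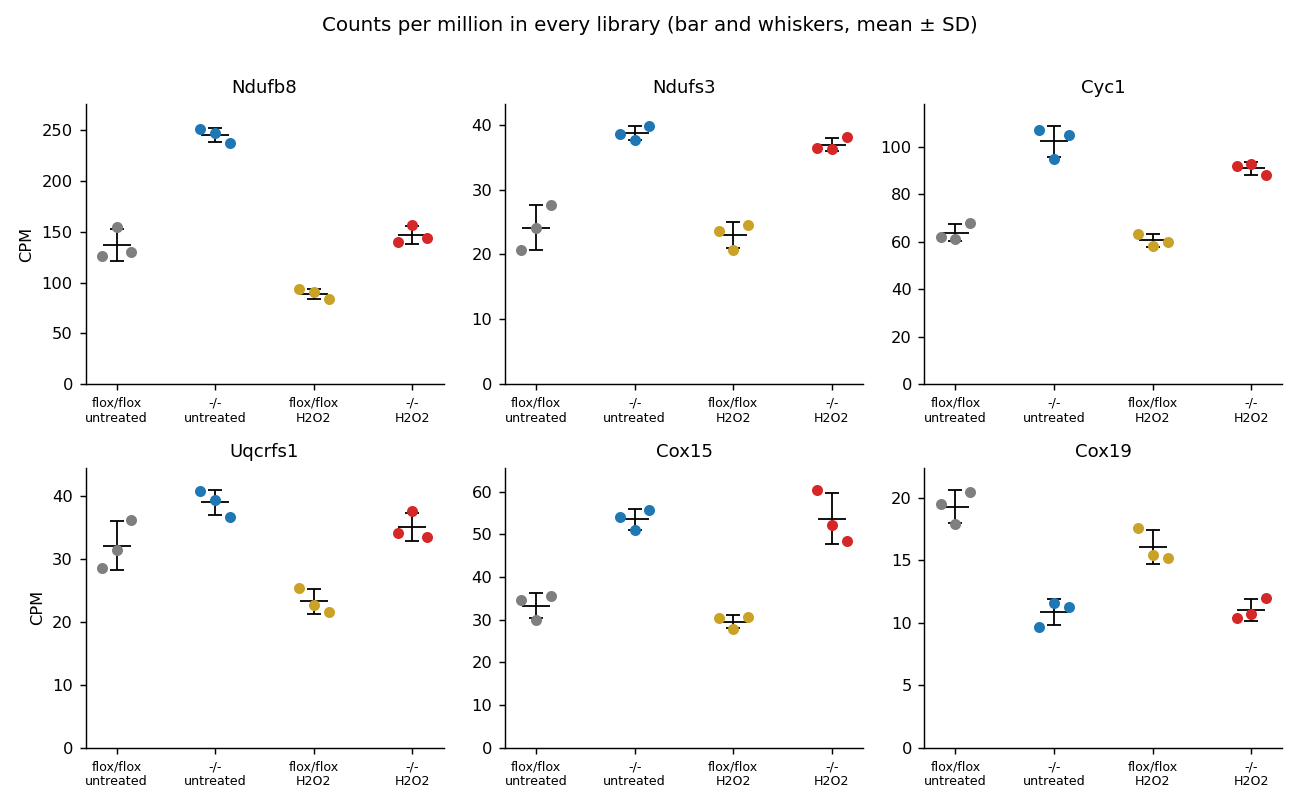
CPM (vertical axis, from 0) of 6 members in every library, with mean and SD of the 3 libraries per group. Ndufb8 was higher in TβRII-/- cells and lower with H2O2, Ndufs3, Cyc1, Uqcrfs1 and Cox15 were higher and Cox19 was lower in TβRII-/- cells.

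The same question was put to the H2O2-treated cells. Here 53 of 101 members were higher and 9 lower in TβRII-/- cells, against 35.1% higher and 31.3% lower of all genes, with a median log2 fold change of 0.16 for members and 0.02 for all genes. The study's limits called 13 members, against 29.8% of all genes. Of the members called higher in either medium, 37 were called in both, which is 90.2% of the 41 in normal medium and 69.8% of the 53 with H2O2. Across the 101 members, the 2 genotype differences, which share no library, had a Pearson correlation of 0.923 and a Spearman correlation of 0.848, and across all genes tested of 0.944 and 0.885. The Pearson value for the members includes the low-count isoforms Cox7a1 and Cox6b2, which lie far from all other members in both media.

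Complex I subunits were higher in 19 and lower in 3 of 37, complex II subunits higher in 3 of 4, complex III subunits higher in 7 of 9, complex IV subunits higher in 6 and lower in 2 of 15, and complex V subunits higher in 11 and lower in 2 of 17. The shares higher were 51.4%, 75%, 77.8%, 40% and 64.7%, against 35.1% of all genes. The complex III count was 4 without replicate 2 or 3 of H2O2-treated TβRII flox/flox cells, or without replicate 3 of H2O2-treated TβRII-/- cells, and counts of 2 or fewer in a class went to 0 or 1 without several of the libraries. Of the 62 calls, 39 were kept whichever library was left out. Among assembly factors, 6 of 17 were higher and 2 lower (35.3% and 11.8%, against 35.1% and 31.3% of all genes).

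With H2O2, Ndufb8 was at 93.4, 90.4 and 83.5 CPM in TβRII flox/flox cells and at 140, 157 and 144 CPM in TβRII-/- cells (log2 fold change 0.72 ± 0.07, adjusted p = 7.5e-11). Its level in treated TβRII-/- cells lay near that of untreated TβRII flox/flox cells, with 126 to 155 CPM. Cox15 rose by 0.86 ± 0.08 on the log2 scale, with 30.4, 27.7 and 30.6 CPM against 60.3, 52.2 and 48.5 CPM. Cyc1 and Uqcrfs1 both rose by 0.59, Ndufb4 by 0.88, Ndufs3 by 0.69, Ndufa6 by 0.63 and Atp5f1e by 0.59. Cox7a2l, which joins complexes III and IV in supercomplexes, rose by 0.62 ± 0.08 and Cox14, an assembly factor of complex IV, by 0.59 ± 0.09. Windows of Cox7a2l are shared to 43.3%, chiefly with Gm61259. Ndufaf6, an assembly factor of complex I, fell by 0.65 ± 0.21, with 3.04, 3.81 and 3.57 CPM against 2.13, 2.49 and 1.95 CPM (adjusted p = 0.00664).

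Several complex IV subunits have alternative isoforms, of which 3 were rare and differed strongly between groups. Cox7a1, the heart and muscle isoform of subunit VIIa, was counted 3, 5 and 4 times in the untreated TβRII flox/flox libraries and 20, 23 and 35 times in the untreated TβRII-/- libraries. Its fitted log2 fold change was 2.54 ± 0.43 (adjusted p = 5.03e-06), and the ratio of summed counts per depth was 5.95, with a 95% counting interval from 3.22 to 12. With H2O2 the counts were 5, 5 and 1 against 23, 35 and 27, and the log2 fold change was 2.66 ± 0.43. Cox6b2, known as the testis isoform of subunit VIb, was counted 10, 17 and 14 times against 72, 82 and 69 times untreated (log2 fold change 2.31 ± 0.24, adjusted p = 7.37e-10; ratio 4.98, interval 3.56 to 7.13). With H2O2 it was counted 18, 22 and 15 times against 86, 104 and 101 times (log2 fold change 2.15 ± 0.22). Neither was called with H2O2 in either genotype. The counts of both genes did not overlap between genotypes, and Cox7a1 passed the filter on low counts only through the TβRII-/- libraries. The representative transcript of Cox6b2 is annotated as nonsense-mediated decay.

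Cox6a2, the heart and muscle isoform of subunit VIa, differed with treatment. It was counted 1, 1 and 0 times in untreated and 9, 22 and 15 times in H2O2-treated TβRII flox/flox libraries, and 1, 3 and 0 times against 22, 19 and 13 times in TβRII-/- libraries. The ratios of summed counts per depth were 22.6 (interval 5.91 to 192) and 12.2 (interval 4.49 to 46.3), with fitted log2 fold changes of 4.28 ± 0.75 and 3.49 ± 0.63 (adjusted p = 2.74e-05 and 5.06e-05). All treated libraries lay above all untreated ones. These intervals cover counting error only. Cox6a2 passed the filter on low counts only through the treated libraries, and it did not pass when the 2 groups of TβRII flox/flox cells were fitted alone. Between genotypes it was not called, with log2 fold changes of 0.77 ± 1.26 untreated and −0.02 ± 0.38 with H2O2.

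**Figure D4:**
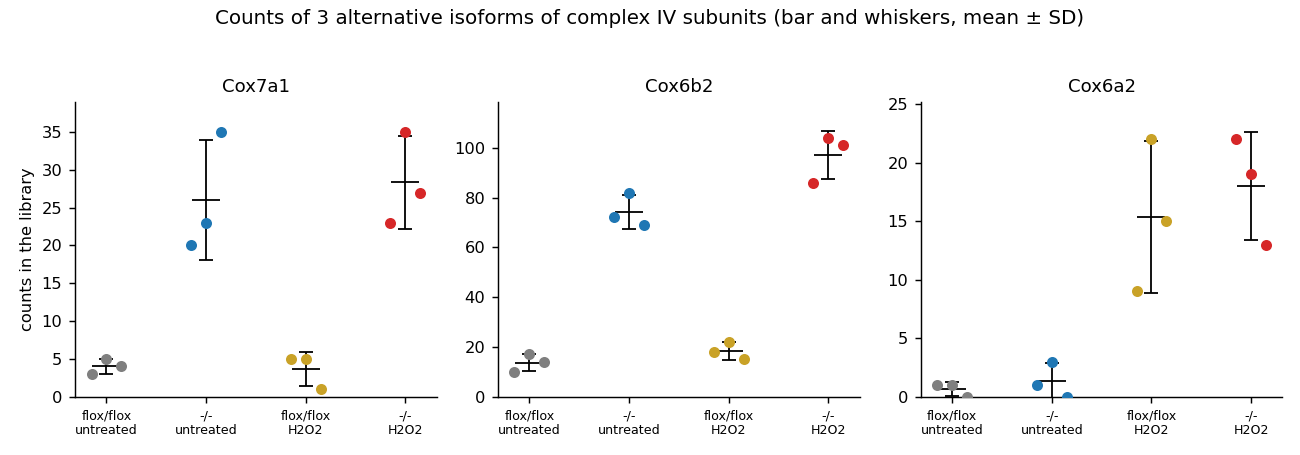
Raw counts (vertical axis, from 0) of Cox7a1, Cox6b2 and Cox6a2 in every library, with mean and SD of the 3 libraries per group. Cox7a1 and Cox6b2 were higher in TβRII-/- cells under both conditions, while Cox6a2 was counted at most 3 times in an untreated library and at least 9 times in a treated one.

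The common isoforms remained far above these. Per kilobase, Cox6a1 stood at 463, 553, 457 and 517 CPM per kb in untreated TβRII flox/flox, untreated TβRII-/-, H2O2-treated TβRII flox/flox and H2O2-treated TβRII-/- cells, against 0.0612, 0.112, 1.39 and 1.36 for Cox6a2. Cox6b1 stood at 209, 207, 180 and 191, against 1.74, 8.65, 2.28 and 10.3 for Cox6b2. Cox7a2 stood at 12.2, 12.2, 11.4 and 12.3 CPM per kb, against 0.516, 3.04, 0.451 and 2.99 for Cox7a1, although the representative transcript of Cox7a2 is long and lowers its value per length. Cox4i1 was lower in TβRII-/- cells with H2O2, at a log2 fold change of −0.21 (adjusted p = 0.0168), although the libraries overlapped, and was at −0.06 untreated (adjusted p = 0.483). The first of these calls was lost without replicate 1 or 2 of treated TβRII-/- cells and with library totals alone. Cox7b fell with H2O2 in both genotypes, by 0.31 and 0.32 on the log2 scale, and Cox8a was higher in TβRII-/- cells with H2O2, by 0.16, a call that was lost whichever library was left out and by DESeq2. Ndufa4, now counted as a complex IV subunit, was higher in untreated TβRII-/- cells by 0.35.

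Of the 6 members below the filter, 5 were isoforms or paralogues of more abundant subunits and 1 was the gene copy. Cox4i2 was counted 2 times and Cox7b2 1 time over all 12 libraries, and Cox8b, Cox8c and Ndufb11b were at 0 counts. A sum of 0 allows up to 3 counts over these libraries. Ndufa4l2, the paralogue of Ndufa4, was counted 56 times in all and at most 11 times in a library. Among the 3 genes that encode the same mature c-ring subunit of complex V, Atp5mc3 was the most abundant at 126 CPM per kb in untreated TβRII flox/flox cells, followed by Atp5mc2 at 44.5 and Atp5mc1 at 5.5. The representative transcript of Atp5mc1 has 4755 bases, against 635 for Atp5mc2, which lowers its value per length. In counts the 2 genes were close, at 425, 424 and 411 for Atp5mc1 and 485, 412 and 466 for Atp5mc2 in these libraries. In untreated TβRII-/- cells, Atp5mc2 and Atp5mc3 were higher by 0.48 and 0.28 on the log2 scale, and Atp5mc1 was at 0.15 and not called. The windows of Atp5mc2 were shared to 46.4%, with Gm10175 in the lead.

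The next comparison asked how members answered to H2O2 in serum-free medium. In TβRII flox/flox cells, 36 of 101 members fell and 1, Cox6a2, rose, against 20.5% lower and 21% higher of all genes. The median log2 fold change was −0.15 for members, with quartiles of −0.24 and −0.07, and 0.01 for all genes. The study's limits called 2 members, Ndufb8 and Cox6a2, against 7.56% of all genes. Of the 101 members, 88 had a negative log2 fold change.

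In complex V, 14 of 17 subunits fell, at a median log2 fold change of −0.24, together with Atp5if1 (−0.24 ± 0.06), the inhibitor that keeps the enzyme from consuming ATP. All 4 peripheral stalk subunits, 4 of 5 subunits of the F1 head and central stalk, and 6 of 8 membrane subunits fell. Of the F1 subunits, Atp5f1d, the delta subunit, was at 146, 159 and 154 CPM untreated and at 120, 117 and 113 CPM with H2O2 (log2 fold change −0.39 ± 0.07, adjusted p = 3.64e-05). Atp5pb, the stalk subunit b, was at 141, 165 and 173 CPM and at 135, 117 and 130 CPM (−0.33 ± 0.07, adjusted p = 0.000275). The treated libraries lay below the untreated ones for both genes.

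Other complexes had fewer calls, with 3 of 4 complex II subunits, 4 of 9 complex III subunits, 8 of 37 complex I subunits and 2 of 15 complex IV subunits lower. These were 75%, 44.4%, 21.6% and 13.3%, against 20.5% of all genes, so that complex I lay near that share and complex IV below it. Among assembly factors, 4 of 17 (23.5%) fell: Ndufaf4 of complex I (−0.50 ± 0.09), and Cox10, Cox14 and Cox19 of complex IV. Ndufb8 fell by 0.62 ± 0.07 on the log2 scale, from 126, 155 and 130 CPM to 93.4, 90.4 and 83.5 CPM (adjusted p = 1.54e-08). Uqcrfs1 fell by 0.46 ± 0.09, from 28.6, 31.4 and 36.2 CPM to 25.4, 22.7 and 21.6 CPM, while Cyc1, the other redox subunit of complex III in the list, was at −0.08 ± 0.07 (adjusted p = 0.373). Ndufs3 and Ndufa6, which were higher in TβRII-/- cells, were at −0.07 and 0.06 with H2O2 and were not called.

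These counts depended on single libraries, and 13 of the 37 calls were kept whichever library was left out. Those for Ndufb8, Ndufaf4, Uqcrfs1, Atp5f1d, Atp5pb, Cox7b and Cox6a2 were among them, while those for Cox14, Cox19 and all 3 complex II subunits were each lost without 2 or more of the libraries. The number of members called fell from 37 to 20 and 21 without replicates 2 and 3 of untreated TβRII flox/flox cells, and to 18 and 23 without replicates 2 and 3 of the treated cells, and it was 43 without untreated replicate 1. For complex V, 14 lower subunits became 7 and 8 without untreated replicates 2 and 3, and 9 and 8 without treated replicates 2 and 3. Complex I subunits went from 8 to 3 and 5 without untreated replicates 2 and 3 and to 2 without treated replicate 2. Complex III went from 4 to 1 or 2 without any of these 4 libraries, complex II from 3 to 1 without untreated replicate 3 or treated replicates 2 or 3, and complex IV assembly factors from 3 to 1 without untreated replicate 3 or treated replicate 2.

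In TβRII-/- cells, 25 of 101 members fell with H2O2 and 2, Cox6a2 and Ndufv3, rose, against 19.1% lower and 20.5% higher of all genes. The median log2 fold change was −0.09 for members and 0.02 for all genes, and the study's limits called 3 members, against 7.77% of all genes. Scaled by library totals alone, 18 members were lower and 5 higher. Ndufv3, a small accessory subunit of complex I, was at 0.18 on the log2 scale (adjusted p = 0.0432), a call that was lost by DESeq2, with no filter on low counts, and without any 1 of 5 of the 6 libraries. Of the 27 calls, 13 were kept whichever library was left out. Of the members called lower, 14 were lower in both genotypes, which is 38.9% of the 36 in TβRII flox/flox cells and 56% of the 25 in TβRII-/- cells.

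By complex, 7 of 17 complex V subunits, 7 of 37 complex I subunits, 3 of 9 complex III subunits, 4 of 15 complex IV subunits and 4 of 17 assembly factors fell. In this order, these were 41.2%, 18.9%, 33.3%, 26.7% and 23.5%, against 19.1% of all genes, so that complex I lay near that share. No complex II subunit was called by edgeR, with none of the 4 at an unadjusted p under 0.05. Complex I subunits were called lower in 4 without untreated replicate 2 or treated replicate 1 or 3, and complex III subunits in 1 without untreated replicate 1 or 2 or treated replicate 3 and in 0 without treated replicate 1. Without untreated replicate 2, 3 complex I subunits rose, and Ndufv3 was not among them. Ndufb8 fell by 0.74 ± 0.07 on the log2 scale, from 251, 247 and 238 CPM to 140, 157 and 144 CPM (adjusted p = 2.25e-10). Ndufaf6 fell by 0.82 ± 0.20, from 3.01, 4.8 and 3.86 CPM to 2.13, 2.49 and 1.95 CPM (adjusted p = 0.00153), and Ndufaf4 by 0.49 ± 0.09. Atp5pb fell by 0.35 ± 0.07, from 188, 192 and 185 CPM to 148, 155 and 140 CPM, and Atp5f1d by 0.28 ± 0.07. Cyc1 fell by 0.17 ± 0.06, from 107, 94.9 and 105 CPM to 91.9, 92.8 and 87.9 CPM (adjusted p = 0.0262), and this call was lost without untreated replicate 1 or 3 or treated replicate 1 or 3 and with library totals alone. Uqcrfs1 was at −0.15 ± 0.08 and was not called (adjusted p = 0.138).

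Whether the response to H2O2 differed between genotypes was tested directly with an interaction term. No member passed an adjusted p of 0.05 by edgeR, against 10.2% of all genes. An unadjusted p under 0.05 was reached by 6 of 101 members, against 3079 of all 12971 genes tested. These 6, named here after their values were seen, were Uqcrfs1 (difference of log2 fold changes 0.31 ± 0.12, adjusted p = 0.0944), Ndufv3 (0.28, adjusted p = 0.0881), Atp5f1a (0.22, adjusted p = 0.108), Atp5if1 (0.22, adjusted p = 0.124), Ndufa12 (0.33, adjusted p = 0.165) and Ndufa4 (−0.23, adjusted p = 0.121). DESeq2 called 1 member, Atp5f1a (adjusted p = 0.0409). The responses of the 2 genotypes are thus not shown to differ. Ndufb8 differed by −0.12 ± 0.10 between genotypes in its response (adjusted p = 0.511).

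**Figure D5:**
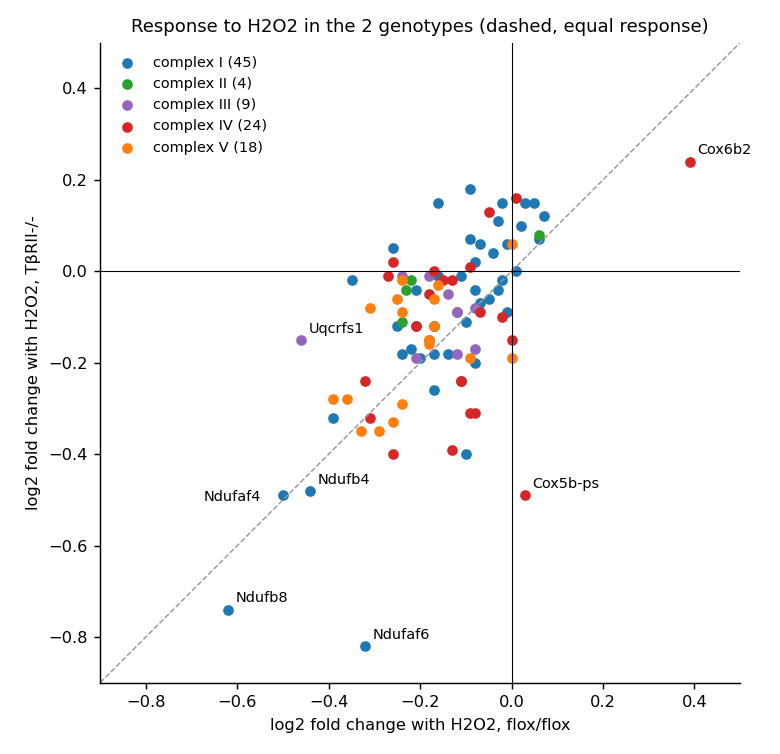
Log2 fold change with H2O2 in TβRII flox/flox cells (horizontal axis) and TβRII-/- cells (vertical axis) for 100 tested members, coloured by complex, with Cox6a2 left out at 4.28 and 3.49. Ndufb8, Ndufaf4 and Ndufb4 lie low on both axes, near the line of equal response, and Ndufaf6 lies below it.

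The 2 H2O2 responses, which share no library, had a Pearson correlation of 0.93 and a Spearman correlation of 0.518 over the 101 members, and of 0.573 and 0.605 over all genes tested. Pearson's value for the members includes Cox6a2, which lies far from all other members on both axes. In 85 of 101 members the 2 responses had the same sign.

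Ndufb8, Sdhb, Uqcrc2 and Atp5f1a encode the nuclear targets of the antibody mixture with which the study examined the complexes. Apart from Ndufb8, none was called between the untreated genotypes, with log2 fold changes of 0.13 ± 0.07 for Sdhb, 0.08 ± 0.06 for Uqcrc2 and −0.02 ± 0.06 for Atp5f1a. For NDUFB8, the study reported less protein in mitochondria of TβRII-/- PT cells, whereas its RNA was higher here in whole untreated TβRII-/- cells. RNA and protein thus went in opposite directions, in unlike fractions, and the cause was not tested. In uninjured mice with the receptor deleted in the PT, the study also reported less Ndufb8 protein in the renal cortex. Its spatial RNA data for the PT of these mice pointed to lower complex I subunits and coenzyme Q2. In untreated TβRII-/- cells here, 13 of 37 complex I subunits were higher and 5 lower, and Coq2 rose by 0.32 on the log2 scale. Why mice and cells differed was not tested. With H2O2, Sdhb was higher in TβRII-/- cells by 0.31 ± 0.07 (adjusted p = 0.000115) and Atp5f1a by 0.20 ± 0.06 (adjusted p = 0.00526), and the call for Atp5f1a was lost without replicate 2 or 3 of treated TβRII flox/flox cells. The genes of all 4 antibody targets fell with H2O2 in TβRII flox/flox cells, by 0.21 to 0.62 on the log2 scale. Atp5f1a, the most abundant of the 4 in CPM, went from 625, 647 and 700 CPM to 567, 515 and 512 CPM (−0.31 ± 0.06, adjusted p = 0.000212). Sdhb lost its call without untreated replicate 2 or treated replicate 3, and Uqcrc2 without untreated replicate 3 or treated replicate 2 or 3. In TβRII-/- cells, Ndufb8 and Uqcrc2 fell, by 0.74 and 0.19 on the log2 scale, and the call for Uqcrc2 was lost without untreated replicate 2 or treated replicate 1, and with library totals alone.

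Among the complex II genes, Sdha, the flavoprotein that oxidises succinate, was at 191, 188 and 178 CPM in untreated TβRII flox/flox cells and passed no test, with log2 fold changes between −0.12 and 0.08 in the 4 comparisons. Sdhb, Sdhc and Sdhd, the iron-sulfur subunit and the membrane anchors, fell with H2O2 in TβRII flox/flox cells by 0.23, 0.22 and 0.24 on the log2 scale, and were higher in TβRII-/- cells with H2O2 by 0.31, 0.21 and 0.48. The last call for Sdhc was lost without replicate 2 of either treated group and summed over transcripts. Sdhd was also higher untreated, with 37.7, 42.1 and 46.4 CPM against 57.4, 51.7 and 51.7 CPM (0.35 ± 0.08, adjusted p = 0.00026). Atp5if1 was higher in TβRII-/- cells by 0.36 ± 0.06 with H2O2 (adjusted p = 8.59e-06). Untreated, its log2 fold change was 0.14 ± 0.06 (adjusted p = 0.0455), with overlapping libraries, and this call was lost by DESeq2, with no filter on low counts, with only the groups compared, summed over transcripts, and without replicate 1 or 3 of TβRII flox/flox or 2 or 3 of TβRII-/- cells.

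Other genes of the pathway were taken from lists. Of 41 assembly factors outside the naming rule, 9 were higher and 6 lower in untreated TβRII-/- cells, 15 and 6 with H2O2, and 0 rose and 9 fell with H2O2 in TβRII flox/flox cells (1 and 7 in TβRII-/- cells). Of these factors, 22% were higher untreated, against 33.3% of all genes, and 36.6% with H2O2, against 35.1%, and 22% fell in TβRII flox/flox cells, against 20.5%. In each medium, 14.6% were lower in TβRII-/- cells, against 31.4% untreated and 31.3% with H2O2. With H2O2, 17.1% fell in TβRII-/- cells, against 19.1%. Coa3, an assembly factor of complex IV, rose by 0.58 and 0.84 on the log2 scale between genotypes in the 2 media, whereas Ttc19, which acts on complex III, fell by 0.57 and 0.79. Of 14 tested genes of coenzyme Q synthesis and cytochrome c, 5 were higher and 2 lower untreated (35.7% and 14.3%, against 33.3% and 31.4% of all genes), and 6 and 2 with H2O2 (42.9% and 14.3%, against 35.1% and 31.3%). Coq9 rose by 0.74 and 0.77 between genotypes, and cytochrome c itself, Cycs, fell with H2O2 by 0.49 in TβRII flox/flox cells and by 0.39 in TβRII-/- cells.

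Of 13 subunits encoded in mitochondrial DNA, 7 were counted well enough to be tested, and the other 6 were at or near 0, so that their counts do not stand for their levels. All 7 were higher with H2O2 in TβRII flox/flox cells, against 21% of all genes, at a median log2 fold change of 0.36, whereas 1 rose and 1 fell in TβRII-/- cells. The difference between genotypes in this response was called in 5 of the 7, against 10.2% of all genes, each with a lower value in TβRII-/- cells, at a median of −0.51 over these 5. For mt-Co1, the catalytic subunit of complex IV, the responses were 0.25 and −0.27. The summed mitochondrially encoded counts ranged from 47340 to 70260 CPM over the libraries. With these genes left out of the scaling, 41 members were higher and 7 lower between untreated genotypes, and 36 fell with H2O2 in TβRII flox/flox cells.

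Among 16 transcriptional regulators of these genes, Ppargc1a, a coactivator of mitochondrial biogenesis, was at 5 CPM in untreated TβRII flox/flox cells and 24.5 CPM in untreated TβRII-/- cells (log2 fold change 2.30, adjusted p = 5.01e-17). With H2O2 it was at 3.95 and 33.6 CPM, and its response differed between genotypes (0.80, adjusted p = 0.00635). Esrra rose by 0.30 and 0.33 and Tfam, which packages and transcribes mitochondrial DNA, by 0.50 and 0.57 between genotypes. Nrf1, a factor known to bind promoters of this gene class, was at 0.17 untreated (adjusted p = 0.0314) and at 0.01 with H2O2 (adjusted p = 0.916). In all, 8 regulators were higher and 2 lower in untreated TβRII-/- cells (50% and 12.5%, against 33.3% and 31.4% of all genes). The 2 lower were Pprc1 and Polrmt. Pprc1 was at 224 CPM in untreated TβRII flox/flox and 168 CPM in untreated TβRII-/- cells, with log2 fold changes of −0.41 untreated and −0.41 with H2O2. Polrmt was at −0.24 and −0.31.

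The counts of this gene class carry limits of annotation. Of 101 tested members, 79 were represented by an annotated coding transcript and 22 by another type, with 11 retaining an intron. In untreated cells, 17 of these 22 were called between genotypes, 13 higher and 4 lower, against 31 of the 79. These were 77.3% and 39.2%, against 64.7% of all genes tested. Restricting every gene to coding transcripts left 41 higher and 7 lower members. Of the tested members, 52 shared at least 1 window of 50 bases with a transcript of a gene elsewhere, and 1, the retrocopy Cox5b-ps, shared more than 50%. In 12 of all 107 members, more than 50% of the representative transcript lay under an exon of a gene on the opposite strand. Whether the counting used strand is not given in the sources used here.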

How the data were processed

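Total RNA of cultured PT cells was sequenced after stranded, poly(A)-selected library preparation. The authors trimmed reads with fastp, aligned them with STAR to GRCm38.p6 (GENCODE M23) and deposited featureCounts counts per transcript, with reads counted on several transcripts of a gene (versions and strand setting are not given in the sources used here). Here, 104820 of 106332 transcripts were matched to genes, the others holding 1.22% to 1.28% of counts, and the transcript with the highest total stood for each gene. Genes were filtered with filterByExpr and TMM-scaled, and edgeR 4.0.16 (R 4.3.3, limma 3.58.1) was fitted to the 12 libraries with its quasi-likelihood test and Benjamini-Hochberg adjustment over 12971 genes; called means an adjusted p under 0.05. DESeq2 1.42.0 was an alternative, as were other scalings, filters, transcripts, a replicate block and leaving out each library. CPM are TMM-scaled. Scripts were tested on simulated data. By rule, up to 10 members per direction past an adjusted p of 0.05 and 1.5-fold in each comparison, the antibody targets, alternative isoforms, the Sdh genes, Cyc1 and Atp5if1 were named. Further members were named by class and after their values were seen. Members and lists were chosen with earlier results of these data known. Authors' comparison values were not used. The values of 1 member are not reported here, although it is counted.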

Additional observations from a re-analysis of the deposited data

How the results depend on the processing

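Between genotypes, 44 to 60 members were called untreated and 48 to 76 with H2O2 under the alternatives, and 45 to 49 and 48 to 55 when single libraries were left out. With H2O2, 30 to 38 were called in TβRII flox/flox and 23 to 37 in TβRII-/- cells, and 18 to 43 and 18 to 27 with single libraries left out. Scaling by library totals alone, which moved the median of all genes to 0.10 untreated and 0.17 with H2O2 (log2), gave 55 higher and 5 lower, and 71 higher and 5 lower members between genotypes. For the difference in response between genotypes, library totals alone called 4 members, DESeq2 1 (Atp5f1a), no filter on low counts 1 (Ndufa12), the sum over transcripts 1 (Ndufab1), and leaving out single libraries 0 to 3. Summed over transcripts, members took 0.778%, 0.844%, 0.700% and 0.766% of counts in untreated TβRII flox/flox, untreated TβRII-/-, treated TβRII flox/flox and treated TβRII-/- cells. The cause was not tested. Same-numbered libraries did not deviate together (correlations from −0.101 to 0.0582), so no pairing by number was detected. A lack of correlation cannot exclude that same-numbered libraries were handled together. With the replicate block, 48, 61, 36, 27 and 0 members were called in the 5 tests. The setting with coding transcripts only was chosen after seeing the data. Of the members' calls, 38 of 48, 39 of 62, 13 of 37 and 13 of 27 were kept whichever library was left out, and 41, 44, 25 and 17 under all other alternatives that gave a value (genotype untreated, genotype with H2O2, H2O2 in TβRII flox/flox, H2O2 in TβRII-/-). The block lost the call for Ndufv3 in TβRII-/- cells. Values near 0 that were not called could change sign, as for Atp5f1a between untreated genotypes, which ranged from −0.06 to 0.07.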
